A study of Mus musculus with 8 samples.

Results

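The genes described here encode the protein subunits of oxidative phosphorylation, the 5 complexes of the inner mitochondrial membrane that pass electrons to oxygen and make ATP. They were chosen by gene symbol alone, without names that mark a pseudogene. For the nuclear genome these were Nduf, Sdh, Uqcr, Cox4 to Cox8 and Atp5 symbols. For the mitochondrial genome they were the mt- symbols of its 13 protein-coding genes. The rule found 101 rows of the 35896 gene rows in the table (100 symbols, since Atp5o has 2 rows), 88 of them nuclear and 13 mitochondrial. Complexes were assigned by the start of the symbol alone, so that every Nduf row, Ndufa4 among them, counts in complex I. Complex I (NADH dehydrogenase) had 39 nuclear and 7 mitochondrial rows, complex II (succinate dehydrogenase) 4 nuclear rows, and complex III (cytochrome bc1) 8 nuclear rows and 1 mitochondrial row. Complex IV (cytochrome c oxidase) had 19 nuclear and 3 mitochondrial rows, and complex V (ATP synthase) 18 nuclear and 2 mitochondrial rows. The filter on low counts left 94 rows for testing, 81 nuclear and all 13 mitochondrial; each of the 7 untested rows had at most 33 counts over all columns. The annotation calls 97 of the rows protein-coding and 4 processed pseudogenes: Ndufb4c and Cox6c2, which were tested, and Ndufa11b and Ndufs6b, which were not.

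RNA-seq profiled molar tooth germs of BRE-GFP mouse embryos, a strain whose GFP reports BMP-Smad signalling, after 1 day in culture. Germs taken at E12.5 (days of embryonic development) were given the solvent DMSO, the compound SB431542, which blocks type I receptors of TGF-beta and activin, or the compound SIS3, which blocks Smad3, and germs taken at E13.5 were given DMSO. Every group carries the reporter and no dose was known here. Whole germs mix mesenchyme, epithelium and other cells, so fewer cells of a type and less RNA per cell cannot be told apart. The TruSeq RNA Sample Preparation Kit v2 served for the SIS3 libraries alone and the SMARTer Universal Low Input RNA Kit for all others, so that inhibitor and kit cannot be told apart in any SIS3 value. Each group has 2 columns; in the 3 SMARTer groups they differed by about the sampling noise in genes with 1 unshared transcript and were counted as 1 library, which leaves 5 libraries.

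The 13 mitochondrial mRNAs are cut from long transcripts that start in the control region of the mitochondrial genome, 12 from one strand and mt-Nd6 from the other, and all nuclear subunits are imported after translation in the cytoplasm. Complexes I, III, IV and V are built from both genomes and complex II from the nucleus alone. Several nuclear subunits exist as isoforms whose use differs between tissues, such as the muscle forms Cox6a2 and Cox7a1.

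Library totals were 30975010 counts for E12.5 DMSO, 28161788 for SB431542, 5995709 and 9427262 for SIS3, and 17519118 for E13.5 DMSO. The spread in every test comes from the SIS3 pair, and each lone library is taken to vary like that pair. No source says that the pair came from separate cultures, so p-values may measure technical spread only. Levels are CPM, counts scaled by the total of each library. Dental mesenchyme markers summed to 3946 CPM in E12.5 DMSO and to between 2869 and 3958 CPM in the other libraries. Endothelial markers summed to 459 CPM in E12.5 DMSO against 56.0 and 59.8 CPM in the SIS3 libraries, macrophage markers to 74.1 against 8.84 and 5.73 CPM, and skeletal muscle markers to 809 against 292 and 247 CPM. In SB431542 the dental epithelium markers summed to 66.3 CPM against 190 CPM in E12.5 DMSO. At E13.5 the erythroid markers summed to 397 CPM against 1077 CPM at E12.5, and the macrophage markers to 141 against 74.1 CPM. The SIS3 libraries also differed from each other, with dental epithelium markers at 81.2 and 322 CPM and erythroid markers at 1419 and 643 CPM. The part of these cell types in the results below was not tested.

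Near-identical copies of mitochondrial genes in the nuclear genome have rows of their own for 7 of the 13 mitochondrial mRNAs, and the pair with the greatest effect is shown by its first 60 bases, with the single differing base in capitals. The sequences are those of the GENCODE M21 transcripts (GRCm38), 5′ to 3′.
mt-Nd3: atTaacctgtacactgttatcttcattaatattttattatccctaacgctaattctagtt
Gm28438: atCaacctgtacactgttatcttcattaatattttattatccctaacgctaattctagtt
Over 345 aligned bases mt-Nd3 (mitochondrial genome, 9459 to 9806, plus strand) and the unprocessed pseudogene Gm28438 (chromosome 1, 24612775 to 24613119, minus strand) differ by 1 substitution, T3C, counted from the first base of mt-Nd3. Gm28438 lies in a run of 7 such copies between 24611535 and 24616197. Gm28661, Gm28437, Gm10925, Gm10222 and Gm28439 match mt-Co2, mt-Co3, mt-Atp6, mt-Nd4l and mt-Nd4 with 0 substitutions over 681, 783, 678, 294 and 876 aligned bases. Gm29216 differs from mt-Co1 by 6 substitutions over 492. On chromosome 2, Gm13340 and Gm13341 hold 45.2% and 47.1% of the 31-base words of mt-Co1 and mt-Co2. Less than 60% of their own words lie in these genes, so they are in none of the sums with copies. Reads from these stretches can be divided between the rows by estimation only, so mitochondrial values are for the gene's own row unless the sum with its copy is named, and the sum is given where it moves a result.

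Mitochondrial genes also share bases with each other. mt-Atp8 and mt-Atp6, the 2 mitochondrial subunits of ATP synthase, are carried on 1 mRNA and overlap by 43 bases (mitochondrial genome, 7927 to 7969, plus strand), shown because reads from them cannot be given to either gene alone. The stretch opens with the start codon of mt-Atp6 and is printed without capitals.
mt-Atp8 and mt-Atp6: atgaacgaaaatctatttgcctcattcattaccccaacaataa
mt-Nd4l and mt-Nd4 overlap by 7 bases on the same strand. mt-Nd5 and mt-Nd6 overlap by 14 bases on opposite strands. No source states whether counting used strand, so mt-Nd6 reads and reads from the opposite strand cannot be told apart.

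In E12.5 DMSO the nuclear subunits summed to 5468 CPM, of which complex V held 2276 and complex I 1568 CPM, and the 13 mitochondrial mRNAs to 13120 CPM. Per kilobase of transcript, the median level was 115 CPM for the 17 nuclear members of complex V with a mean of 5 CPM or more over the libraries. It was 90.3 for the 8 of complex III, 83.0 for the 11 of complex IV, 62.9 for the 4 of complex II and 51.3 for the 37 of complex I. Within complex V these levels ran from 30.3 CPM per kilobase for Atp5g2, which encodes the c subunit of the membrane rotor, to 269 for Atp5l, which encodes subunit g.

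The nuclear sum was highest in E12.5 DMSO at 5468 CPM, followed by 4842 in SB431542, 4555 and 4220 in the SIS3 libraries and 3921 in E13.5 DMSO. The SIS3 pair, the sole measure of spread, differed by less than its distance to E12.5 DMSO. The mitochondrial sum was 13120 CPM in E12.5 DMSO, 14764 in SB431542, 10722 and 13078 in SIS3 and 11406 in E13.5 DMSO; summed with the copies it was 13329, 14941, 13500, 16264 and 11999 CPM. On this scale the SIS3 libraries lay below E12.5 DMSO by the genes' own rows and above it with the copies. On the TMM scale of the fit the sums with copies were 13640 CPM in E12.5 DMSO and 13346 and 15593 in SIS3, on either side. The ratio of the mitochondrial to the nuclear sum was lowest in E12.5 DMSO at 2.40. It was 3.05 in SB431542, 2.54 and 2.87 in SIS3, and 2.91 in E13.5 DMSO. With the copies it was 2.44, 3.09, 3.20, 3.57 and 3.06 in the same order. No test was made of these sums.

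**Figure D1:**
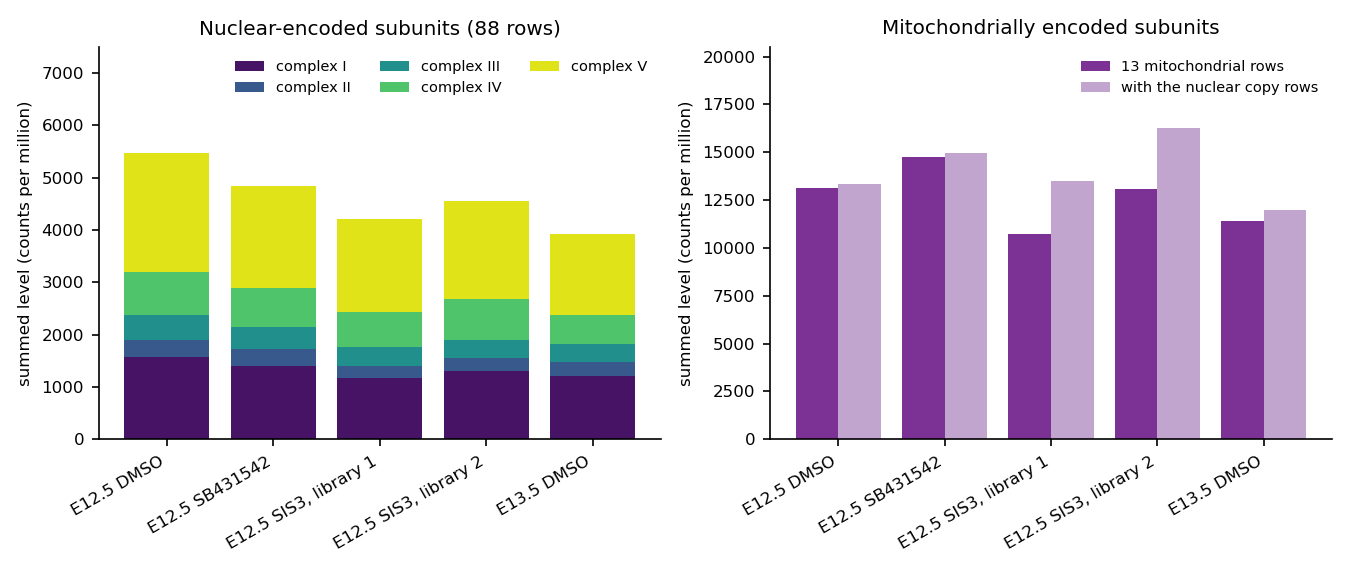
Summed levels of the nuclear subunits by complex (left) and of the mitochondrial mRNAs with and without their nuclear copy rows (right), in CPM, 1 bar or bar pair for each of the 5 libraries. The nuclear sum runs from 5468 in E12.5 DMSO to 3921 in E13.5 DMSO, and adding the copies lifts the SIS3 libraries from 10722 and 13078 to 13500 and 16264.

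The first comparison asked what inhibition of the TGF-beta and activin receptors changed at E12.5. edgeR's quasi-likelihood test called 0 of the 94 tested rows, beside 0% of all 19022 genes, so the comparison of 2 lone libraries called no gene at all. At an unadjusted p under 0.05 there were also 0 members, of 235 genes in all, and DESeq2 called 0 members of 6 genes. The log2 fold change was below 0 for 76 of 81 nuclear members (median -0.19) and above 0 for 11 of 13 mitochondrial mRNAs (median 0.10), beside 47.4% of all tested genes below 0 (median 0.00). With trends on length and GC content removed, the mitochondrial median turned to -0.21, on the side of the nuclear median.

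By complex, the nuclear medians in SB431542 were -0.21 for complex I, -0.15 for complex II, -0.18 for complex III, -0.12 for complex IV and -0.24 for complex V. Sdha, the flavoprotein of complex II, had 166 CPM in E12.5 DMSO and 163 in SB431542 (log2 fold change -0.08, 95% confidence interval of the fit from -0.86 to 0.70). Atp5b, the catalytic beta subunit of ATP synthase, had 408 and 340 CPM (-0.32, from -1.01 to 0.38). The lowest members above 5 CPM were Ndufa11 of complex I, with 26.9 and 19.4 CPM (-0.53, SE 0.55), and Cox7c of complex IV, with 66.9 and 49.96 CPM (-0.47, SE 0.38). Atp5g1, a gene of the c subunit, followed with 99.3 and 74.6 CPM (-0.46, SE 0.37). None of these differences reached 2 standard errors. mt-Nd6 had 88.8 and 136 CPM (0.56, SE 0.34) and was called (adjusted p = 0.0391) only in the edgeR fit of all 8 columns as replicates. Cytoplasmic ribosomal protein genes, the other large set of highly expressed housekeeping genes, had a median of -0.13, with 73 of 85 below 0.

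The second comparison set SIS3, the Smad3 inhibitor, against DMSO at E12.5, with the kit changed at the same time. Of the 94 tested subunits 12 passed edgeR's test, beside 3.82% of all tested genes: 10 were lower in SIS3 (background 3.03%) and 2 higher (background 0.794%). The nuclear members called were 6, all lower, with at least 1 in each of complexes I, III, IV and V. The mitochondrial mRNAs called were mt-Nd2, mt-Nd4l, mt-Nd5 and mt-Cytb, lower, and mt-Co1 and mt-Nd3, higher. The median log2 fold change was -0.41 over the nuclear members and 0.00 over all tested genes. Unlike in the other comparisons, the cytoplasmic ribosomal proteins had a median above 0 (0.15), with 39 of 85 below 0. In CPM, 53 of 81 nuclear members (65.4%) were below E12.5 DMSO in both SIS3 libraries and 10 (12.4%) above it in both, beside 37.1% and 36.4% of all tested genes. The members called were 1 (mt-Nd4l) of 90 with genes of a mean of 5 CPM or more (all genes 1.05%), 2 of 93 with the E12.5 DMSO and SIS3 libraries alone (1.47%) and 6 without either E13.5 DMSO column (3.04% and 2.77%), when Ndufb4, Ndufc1, Atp5mpl, mt-Nd2, mt-Nd3 and mt-Cytb lost the call. They were 56 with all 8 columns as replicates, with or without a replicate block, in fits that called 38.1% and 34.9% of all genes.

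Among the nuclear members, Uqcrq (chromosome 11, 53427922 to 53430831, minus strand), a small subunit of complex III that binds next to cytochrome b, had 56.9 CPM in E12.5 DMSO, 49.0 in SB431542, 10.2 and 18.4 in SIS3 and 46.9 in E13.5 DMSO. Both SIS3 libraries were far below the other 3, and the difference was 4.18-fold (log2 fold change -2.06, SE 0.38, edgeR adjusted p = 0.00929). Cox6c (chromosome 15, 35925886 to 35938246, minus strand), a nuclear subunit of complex IV, had 159, 140, 52.0, 60.4 and 92.1 CPM in the same order of libraries. It was again lowest in the SIS3 pair, 2.98-fold below DMSO (-1.58, SE 0.29, edgeR adjusted p = 0.00788), and of 18 alternatives with a test it lost its call in 1. Atp5h, which encodes subunit d of the peripheral stalk of ATP synthase, had 132, 109, 48.5, 56.6 and 115 CPM (-1.40, SE 0.29, edgeR adjusted p = 0.0167). Atp5mpl, a small proteolipid of the same complex, had 53.5, 45.1, 19.5, 23.4 and 48.3 CPM (-1.39, SE 0.34, edgeR adjusted p = 0.0388). In both genes the SMARTer libraries lay together and the SIS3 libraries apart from them. Of 18 alternatives with a test, Uqcrq and Atp5h kept the call in 15 each and Atp5mpl in 11.

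Complex I contributed Ndufc1 and Ndufb4, both accessory subunits of its membrane arm. Ndufc1 (chromosome 3, 51404677 to 51408988, minus strand) had 39.7 CPM in E12.5 DMSO, 40.4 in SB431542, 8.67 and 16.5 in SIS3 and 22.5 in E13.5 DMSO (-1.72, SE 0.42, edgeR adjusted p = 0.0414). Ndufb4 (chromosome 16, 37647170 to 37654453, minus strand) had 23.8, 22.8, 6.84, 8.70 and 28.8 CPM (-1.68, SE 0.43, edgeR adjusted p = 0.0465). All 31-base words of the member Ndufb4c, which the annotation calls a processed pseudogene, occur in Ndufb4, so their reads may be divided. Summed, the 2 rows had 45.9, 40.3, 15.2, 22.7 and 35.6 CPM, with the SIS3 libraries still lowest. Ndufb4 and Ndufc1 kept the call in 8 and 10 of 18 alternatives with a test. The nuclear core subunits Ndufs1 and Ndufv1 did not pass. Ndufs1, which carries iron-sulphur clusters, had 80.7 CPM in E12.5 DMSO against 117 and 76.3 in SIS3 (0.19, SE 0.34), with the SIS3 libraries on either side. Ndufv1, the subunit that binds NADH, had 86.0 against 47.0 and 63.5 CPM (-0.71, SE 0.31, edgeR adjusted p = 0.268).

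**Figure D2:**
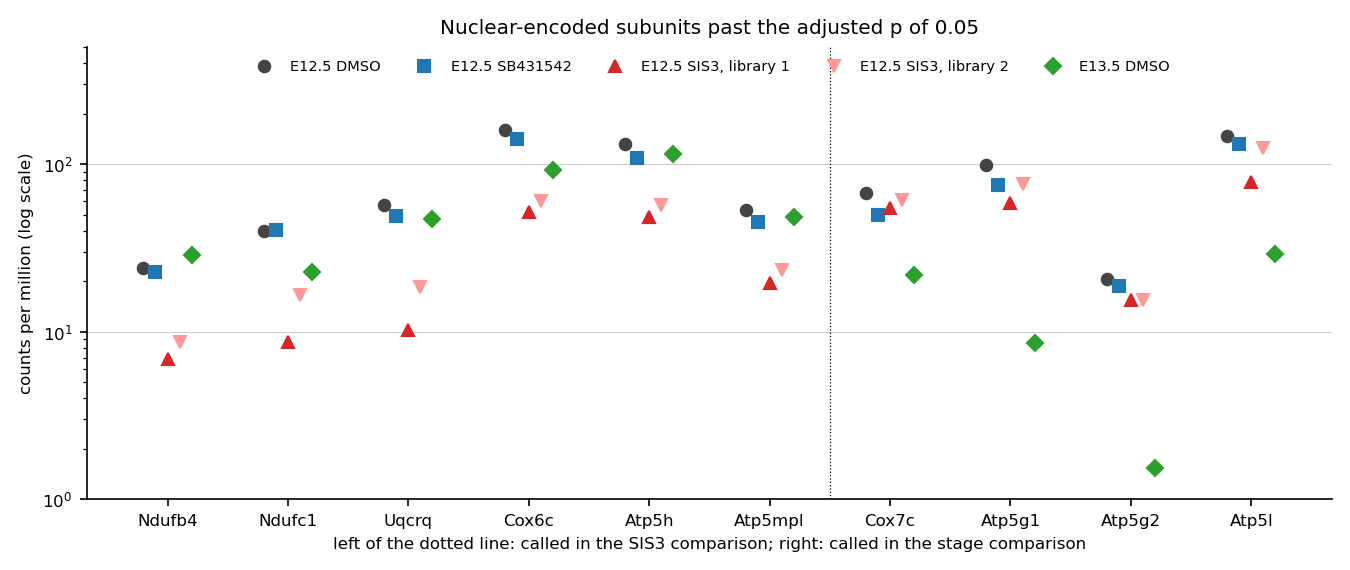
Levels, in CPM on a log axis, of the 10 nuclear subunits past the adjusted p of 0.05, with 1 point for each of the 5 libraries. The SIS3 points are the lowest for the 6 genes left of the dotted line, and the E13.5 DMSO point is the lowest for the 4 genes right of it.

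The remaining complexes were below DMSO in median without further calls. Complex II had a median of -0.46 and 0 of 4 genes called; Sdhb, its iron-sulphur subunit, had 58.1 CPM in E12.5 DMSO and 36.4 and 72.7 in SIS3, on either side. Complex IV had the median nearest to 0 (-0.12 over 15 genes, Cox6c the sole call). Cox4i1, its ubiquitous subunit IV, had 148 against 132 and 153 CPM, and Cox7a2l, which joins complexes III and IV into supercomplexes, 70.1 against 148 and 121 CPM (0.87, SE 0.32, edgeR adjusted p = 0.175). In complex V the catalytic Atp5b had 408 against 402 and 373 CPM (-0.15, SE 0.28). Its 17 tested nuclear genes had a median of -0.49.

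**Figure D3:**
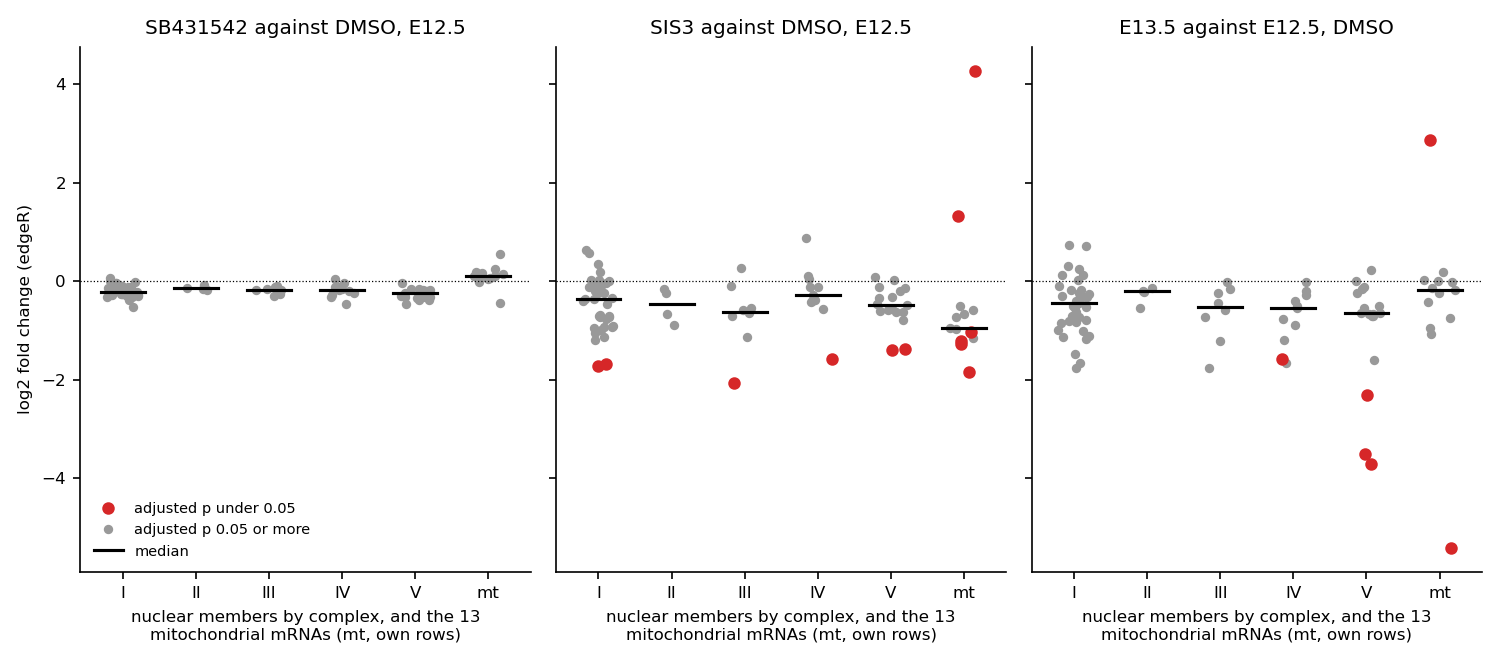
Log2 fold changes from the edgeR fit of the 77 nuclear members with a mean of 5 CPM or more, by complex, and of the 13 mitochondrial mRNAs (mt, own rows), in the 3 comparisons; bars are medians over the members drawn. Red points passed the adjusted p of 0.05: 0 in SB431542, 12 in SIS3 and 6 between the stages.

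The mitochondrial mRNAs divided in the SIS3 libraries between mt-Co1 and most others. mt-Co1, the catalytic subunit of complex IV, had 2126 CPM in E12.5 DMSO, 2618 in SB431542, 5148 and 6035 in SIS3 and 1766 in E13.5 DMSO. Its SIS3 levels were the highest by far (2.50-fold above DMSO, log2 fold change 1.32, SE 0.27, edgeR adjusted p = 0.0157). The log2 fold change was 1.42 (edgeR adjusted p = 0.00976) with its copy Gm29216, the sole copy summed. By own rows mt-Co1 made up 48.0% and 46.1% of the counts of the 13 mitochondrial rows in SIS3 and between 15.5% and 17.7% in the SMARTer libraries. With the copies summed its share in SIS3 was smaller, 5475 of 13500 and 6485 of 16264 CPM, against 2126 of 13329 in E12.5 DMSO. Of the others, mt-Nd4l, a small subunit of complex I, had 233, 273, 60.04, 76.1 and 108 CPM (-1.85, SE 0.29, edgeR adjusted p = 0.00332). It kept its call in all 17 alternatives with a test that gave it a value, and its copy Gm10222 had 0 counts in all columns. mt-Nd4, the next gene, which overlaps mt-Nd4l by 7 bases, had a log2 fold change of -0.72 and did not pass.

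The other 3 lower mRNAs fell by less. mt-Nd5 of complex I had 1310, 1402, 468, 678 and 1171 CPM (-1.27, SE 0.28, edgeR adjusted p = 0.0240). mt-Nd2 had 739, 798, 262, 406 and 739 CPM (-1.22, SE 0.30, edgeR adjusted p = 0.0380). mt-Cytb, the mitochondrial subunit of complex III, had 1611, 1839, 783, 872 and 1802 CPM (-1.03, SE 0.26, edgeR adjusted p = 0.0403). In each of these genes both SIS3 libraries lay below all 3 SMARTer libraries. No copy row was summed with them. Without either E13.5 DMSO column mt-Nd2 and mt-Cytb were not called (edgeR adjusted p between 0.0547 and 0.0646), nor was mt-Nd2 without the second E12.5 DMSO column (0.0508). mt-Nd1 (-0.95), mt-Nd4 (-0.72), mt-Atp6 (-0.66), mt-Atp8 (-0.59) and mt-Nd6 (-0.97) were below DMSO in both SIS3 libraries and did not pass.

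For mt-Nd3, mt-Co2 and mt-Co3 the result depended on the copy rows. The own row of mt-Nd3, a subunit of complex I, held 150 and 167 counts in the E12.5 DMSO columns, 109 and 111 in SB431542, 724 and 2791 in SIS3, and 0 and 4 at E13.5, while Gm28438 held 2407, 2443, 1976, 1970, 668, 213, 479 and 497. Most counts of the pair thus stood in the pseudogene row in SMARTer libraries (between 93.9% and 99.6%) and 48.0% and 7.09% in the SIS3 libraries. By its own row mt-Nd3 was 19.3-fold higher in SIS3 (4.27, SE 0.70, edgeR adjusted p = 0.0442). Summed with Gm28438 it had 167 CPM in E12.5 DMSO and 232 and 319 in SIS3 and did not pass (0.65, SE 0.31, adjusted p = 0.318).

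mt-Co2 and mt-Co3, the other mitochondrial subunits of complex IV, changed sides. The own row of mt-Co2 had 1064 CPM in E12.5 DMSO and 880 and 697 in SIS3 (-0.50, adjusted p = 0.394). Gm28661 had 0 counts in E12.5 DMSO and SB431542 but 4631 and 11670 in SIS3, and the sums were 1064 against 1653 and 1935 CPM (0.68, adjusted p = 0.218). mt-Co3 had 1440 against 518 and 850 CPM by its own row (-1.15, adjusted p = 0.0605) and 1493 against 2084 and 2324 CPM with Gm28437 (0.49, adjusted p = 0.382). With the copies, the 3 complex IV mRNAs and mt-Nd3 were above DMSO in both SIS3 libraries and the other 9 mRNAs below it in both. edgeR then called 1 of the 13 higher and 4 lower, beside 0.763% and 3.02% of all genes in that fit (3.79% either way), and the mitochondrial median was -0.72 in place of -0.95.

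**Figure D4:**
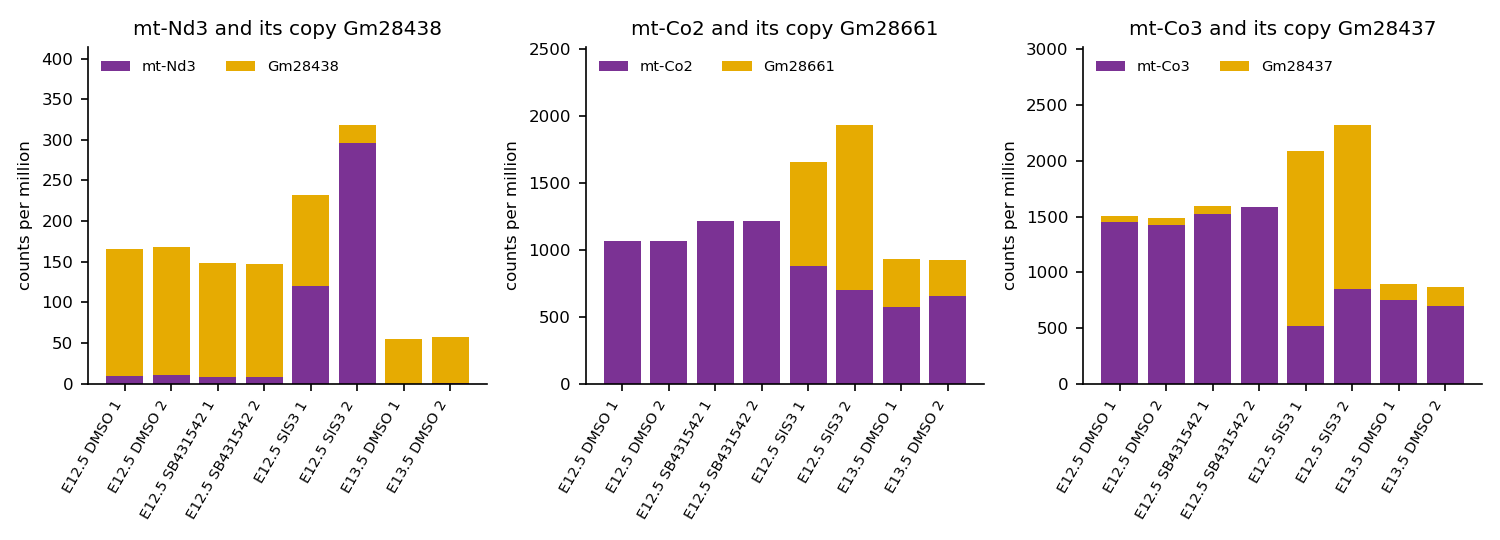
Levels (CPM) in the rows of mt-Nd3, mt-Co2 and mt-Co3 (purple) stacked with those of their nuclear copies (yellow), 1 bar for each of the 8 columns. By library, the copy holds 93.9% to 99.6% of the mt-Nd3 pair in SMARTer but 48.0% and 7.09% in SIS3, and at most 33.6% of the mt-Co2 and mt-Co3 pairs in SMARTer but 46.7% to 75.2% in SIS3.

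**Figure D5:**
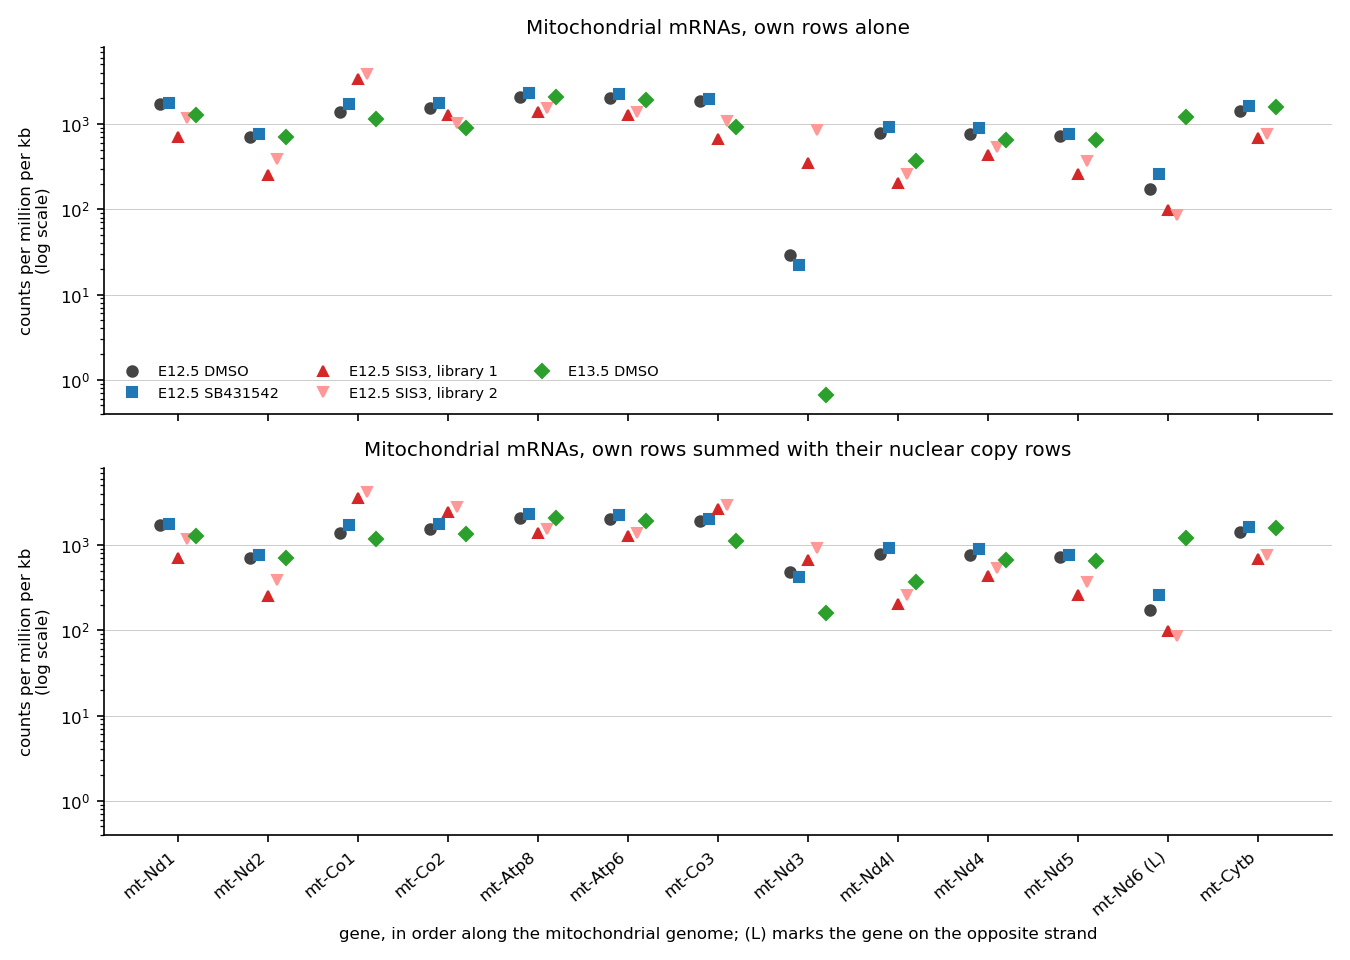
Levels of the 13 mitochondrial mRNAs in CPM per kilobase (log axis), in genome order, by their own rows (top) and summed with their nuclear copies (bottom); each point is 1 library. In SIS3 mt-Co1 is highest and mt-Nd4l among the lowest, mt-Nd6 stands out at E13.5, and the spread of mt-Nd3 narrows when the copy is added.

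The third comparison set E13.5 against E12.5 in DMSO, within the SMARTer kit but between 2 lone libraries. Of 94 tested subunits 6 passed edgeR's test (background 5.23%): 5 were lower at E13.5 (background 1.17%) and 1 higher (background 4.06%). The nuclear calls were Atp5g1, Atp5g2 and Atp5l of complex V and Cox7c of complex IV, all lower, and the mitochondrial calls were mt-Nd3, lower, and mt-Nd6, higher. The nuclear median was -0.53, with 71 of 81 members below 0 (all tested genes 50.03%, median 0.00), and E13.5 DMSO had the lowest CPM of the 5 libraries for 47 of 81 nuclear members (58.0%, against 33.3% of all tested genes). The cytoplasmic ribosomal proteins were also below E12.5, with a median of -0.67 and 77 of 85 below 0. The 6 calls became 3 with genes of a mean of 5 CPM or more (all genes 1.56%) and 14 with no filter (7.49%). They became 57 (60.6%) or 54 (57.4%) with all 8 columns as replicates, without or with a replicate block, in fits that called 54.9% and 52.2% of all genes.

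The c subunit, which forms the rotating ring of ATP synthase, is encoded by the genes Atp5g1, Atp5g2 and Atp5g3 for the same mature protein. Atp5g1 (chromosome 11, 96068852 to 96075670, minus strand) had 99.3 CPM in E12.5 DMSO, 74.6 in SB431542, 58.7 and 75.6 in SIS3 and 8.51 in E13.5 DMSO. The E13.5 library stood far below all others, from 76 and 73 counts in its columns, and the difference was 11.4-fold (log2 fold change -3.51, SE 0.41, edgeR adjusted p = 0.000547). The call was kept in all 17 alternatives with a test. Atp5g2 (chromosome 15, 102662864 to 102672352, minus strand) had 20.7, 18.6, 15.5, 15.5 and 1.54 CPM in the same order (-3.71, SE 0.63, edgeR adjusted p = 0.00520). Its processed pseudogene Gm10175 on chromosome 7 held 38.8% of the pair's counts in E12.5 DMSO and 88.9% at E13.5. Summed, the pair had 33.8 CPM at E12.5 and 13.9 at E13.5 and did not pass (-1.25, SE 0.40, edgeR adjusted p = 0.0839); in SIS3 the sum was 77.4 and 72.6 CPM, above E12.5 DMSO, where the own row was below it. Atp5g3 had 82.0 CPM at E12.5 and 49.3 at E13.5 (-0.70, edgeR adjusted p = 0.288). By their own rows the 3 genes together had 202, 165, 129, 172 and 59.3 CPM. Atp5g3 made up 83.1% of that at E13.5 against 40.6% to 47.0% in the other libraries. Gm10175, left out of these sums, had 13.1, 11.4, 61.9, 57.1 and 12.4 CPM in the same order. The order of the libraries and the Atp5g3 share therefore depend on how reads are divided with that row.

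Atp5l (chromosome 9, 44912557 to 44920742, minus strand), which encodes subunit g, a protein of the dimer interface of ATP synthase, had 146, 132, 77.7, 125 and 29.0 CPM. It was lowest at E13.5 (-2.31, SE 0.40, edgeR adjusted p = 0.00709), where its columns held 189 and 319 counts, the sole member with 20 or more counts that differed by over 1.5-fold between the columns of a SMARTer group. Cox7c, a small subunit of complex IV, had 66.9, 49.96, 54.7, 60.7 and 21.8 CPM (-1.59, SE 0.39, edgeR adjusted p = 0.0340), again lowest at E13.5. Without the first or the second E13.5 DMSO column Cox7c was not called (adjusted p = 0.0694 and 0.0566). Of the 17 tested nuclear genes of complex V 16 were below 0; Atp5j, coupling factor 6 of the stalk, was above it with 104 CPM at E12.5 and 118 at E13.5 (0.22). Atp5pb, subunit b, had 113 and 110 CPM. The complex V median was -0.66, that of complex II -0.21, and those of complexes I, III and IV were -0.44, -0.52 and -0.56. In complex I, Ndufb2 had 31.2 and 8.96 CPM (-1.77, edgeR adjusted p = 0.0683) and Ndufs3, a core subunit, 38.1 and 61.6 CPM (0.72, adjusted p = 0.281).

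The promoters of Atp5l and Atp5g1 are shown because the genes were lowest together at E13.5, and were picked after their values were seen. They are the 250 bases before the RefSeq start (GRCm38.p6), read 5′ to 3′ on the minus strand, at chr9:44920743-44920992 and chr11:96075632-96075881. Capitals mark the words searched on both strands: GCATGCG (core of the NRF1 site), CCGGAAG (ETS factors such as GABP) and ATGGCGG (YY1), factors known to bind promoters of respiratory genes.
Atp5l: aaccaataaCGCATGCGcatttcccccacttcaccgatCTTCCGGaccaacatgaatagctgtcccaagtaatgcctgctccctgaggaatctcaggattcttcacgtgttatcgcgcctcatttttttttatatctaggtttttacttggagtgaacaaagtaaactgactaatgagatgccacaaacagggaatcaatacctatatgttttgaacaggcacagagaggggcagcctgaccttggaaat
Atp5g1: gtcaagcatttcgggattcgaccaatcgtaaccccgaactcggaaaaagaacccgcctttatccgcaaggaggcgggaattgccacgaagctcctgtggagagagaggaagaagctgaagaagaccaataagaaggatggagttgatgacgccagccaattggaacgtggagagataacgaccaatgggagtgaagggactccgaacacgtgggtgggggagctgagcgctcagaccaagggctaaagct
In the bases printed, Atp5l holds the NRF1 word, which overlaps its own reverse complement there, and the ETS word, and Atp5g1 holds none of the 3. Over the promoter table's full windows, which run on past the start, of 69 nuclear members matched 14.5% held the NRF1 word, 23.2% the ETS word and 13.04% the YY1 word, against 5.53%, 14.9% and 6.86% of the 13030 tested genes matched. A match describes letters in these windows and is not a measured site.

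Of the mitochondrial mRNAs, mt-Nd6 (mitochondrial genome, 13552 to 14070, minus strand) had 88.8 CPM in E12.5 DMSO, 136 in SB431542, 51.2 and 44.3 in SIS3 and 634 in E13.5 DMSO. The E13.5 columns, with 5537 and 5564 counts, stood above all others, and the difference was 7.29-fold (2.87, SE 0.36, edgeR adjusted p = 0.000798). It was 0.55 (adjusted p = 0.271) once trends on length and GC content were removed. mt-Nd5, its neighbour on the other strand, had 1310 CPM at E12.5 and 1171 at E13.5 (-0.13, SE 0.34). mt-Nd3 had 10.2 CPM at E12.5 and 0.228 at E13.5 by its own row (-5.42, SE 0.99, edgeR adjusted p = 0.0496), from 0 and 4 counts. Leaving out any single DMSO or SB431542 column ended the call (edgeR adjusted p between 0.051 and 0.103). Summed with Gm28438 the levels were 167 and 55.9 CPM (-1.55, SE 0.36, adjusted p = 0.0282), still called. The other 11 mitochondrial mRNAs lay between -1.08 (mt-Nd4l) and 0.19 (mt-Cytb), and the median of the 13 was -0.19 (-0.14 by sums). mt-Co2 had -0.76 by its own row and -0.17 with Gm28661. With the length and GC trends removed the median was -1.79, and mt-Atp6, mt-Atp8, mt-Co2, mt-Co3, mt-Nd4 and mt-Nd4l were called lower, mt-Atp8 at -3.38 against 0.00 before. That fit called 226 of all 19022 genes lower (2.81% either way). By own rows and by sums alike, edgeR called 1 of the 13 higher and 1 lower, where 4.03% and 1.16% of all genes were called in the fit of the sums (5.19% either way).

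Tissue isoforms of complex IV were low beside their ubiquitous partners. Cox6a2, the isoform of heart and skeletal muscle, had 0.0969 CPM in E12.5 DMSO (3 counts), 0.142 in SB431542, 3.002 and 2.97 in SIS3 (18 and 28 counts) and 0 in E13.5 DMSO. The ratio of SIS3 to DMSO was 30.8 (exact binomial 95% counting interval 9.90 to 155), edgeR's adjusted p was 0.104, and skeletal muscle markers were lower in the same SIS3 libraries. Its partner Cox6a1 had 47.4 CPM in E12.5 DMSO and between 20.2 and 44.0 in the others. Cox6b2, best known from testis, had 2.32, 4.90, 5.004, 5.62 and 0.171 CPM. It was 13.6-fold lower at E13.5 from 72 and 3 counts (counting interval 4.46 to 67.4, edgeR adjusted p = 0.0661). Cox4i2, an isoform induced by low oxygen in lung, had 1.78, 1.74, 0.667, 0.636 and 5.88 CPM (1.75 at E13.5, SE 0.98). The row Cox6c2, a processed pseudogene in the annotation, was at 0 counts outside E13.5 DMSO, where it had 49 (2.80 CPM), at least 28.9-fold above E12.5 against a floor of 3 counts over the group; it shares 61.7% of its 31-base words with Cox6c. Cox7a1, Cox8b and Cox8c were below 0.43 CPM in all libraries.

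Other genes of mitochondrial energy metabolism were set beside the subunits as lists. In SB431542, where no gene was called, edgeR called 0 of 17 tested genes of the tricarboxylic acid cycle, 0 of 49 assembly factors, 0 of 28 genes of mitochondrial DNA expression, 0 of 10 regulators of mitochondrial biogenesis and 0 of 78 mitochondrial ribosomal proteins. In SIS3, with 3.82% of all genes called, it called 1 assembly factor and 1 cycle gene, and 0 of the other 3 lists. Mdh2, mitochondrial malate dehydrogenase, had 152 CPM in E12.5 DMSO against 55.2 and 75.3 in SIS3 (-1.29, adjusted p = 0.0302). Pet117, an assembly factor of complex IV, had 4.84 CPM in E12.5 DMSO and 0 counts in both SIS3 libraries, at least 24.9-fold lower by a floor of 3 counts over the group (adjusted p = 0.00371). The medians in SIS3 were -0.36 for the mitochondrial ribosomal proteins, -0.22 for the cycle, 0.05 for the assembly factors, 0.22 for mitochondrial DNA expression and 0.62 for the regulators.

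Between the stages the medians were -0.38 for the mitochondrial ribosomal proteins, -0.28 for the cycle, -0.42 for the assembly factors, -0.17 for mitochondrial DNA expression and -0.39 for the regulators. With 5.23% of all genes called, the calls were Cox14, a complex IV assembly factor (37.7 to 106 CPM, 1.52, edgeR adjusted p = 0.0340), Mrpl48 (38.7 to 170 CPM, 2.17, adjusted p = 0.00599) and Mrps16 (16.3 to 3.31 CPM, -2.27, adjusted p = 0.0266). The last 2 encode proteins of the large and small subunits of the mitochondrial ribosome. Every comparison uses the same E12.5 DMSO library, so negative medians in each, such as the nuclear -0.19 in SB431542, rest in part on that library. The nuclear subunits are short (median 651 bases against 2040 for all tested genes), and those of at most 1000 bases had medians of -0.41 in SIS3 and -0.56 at E13.5, against -0.04 and 0.00 for all tested genes of that length. The 18 longer ones had medians of -0.29 and -0.26. With trends on length and GC content removed, the nuclear median was -0.12 in SIS3 and -0.53 at E13.5.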

How the data were processed

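Per gene, the authors deposited estimated counts in whole numbers, unscaled. Salmon, HISAT2, SAMtools, deepTools, DESeq2 and the build mm10 appear in the submitters' processing notes, with no roles; annotation and strand setting were not known here. Estimated counts divide reads of near-identical genes between rows, so such rows can exchange counts.

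Columns of a group were summed where, over genes with 1 transcript and no 31-base word shared with another gene (GENCODE M21, GRCm38), their mean squared difference was under 1.5 times the binomial variance: 1.09, 1.09 and 0.938 in the SMARTer groups and 19.6 in SIS3. Over genes with several transcripts, which the rule did not use, the same ratio was 3.66 in E12.5 DMSO, 3.45 in SB431542, 2.88 in E13.5 DMSO and 23.6 in SIS3. Over the members it was 1.78, 1.15, 2.44 and 46.2 in that order. The rule was set after a first version, without the shared-word condition, had summed the E13.5 columns alone; the fit under that version is an alternative. edgeR 4.0.16 (R 4.3.3) tested TMM-normalised counts with a quasi-likelihood F test, filterByExpr (19022 genes) and Benjamini-Hochberg adjustment at 0.05 over all genes, on 5 libraries with 1 residual degree of freedom. DESeq2 1.42.0, other filters, scalings and column sets were alternatives. Copies were summed where a member shared 20% of its 31-base words with a row and at least 60% of that row's words lay in the member; the latter limit was set after the copies had been seen. Named were all mitochondrial mRNAs, all called members, the highest and lowest nuclear member of each complex above a mean of 5 CPM, and a short list of core subunits and isoforms; the text gives those its results turn on. The subunits with the highest and lowest level per kilobase, and Atp5g3, Atp5j, Ndufa11 and Cox7a2l where outside this rule, were chosen after their values were seen. The members and lists were chosen with earlier results of these data known. The test was tried on simulated counts with 4-fold changes planted in 200 genes. With single genes given their own spread it recovered 62%, 74% and 54.5% of them in the SB431542, SIS3 and stage comparisons. False calls then numbered 64, 52 and 50, a larger share of the calls than the threshold of 0.05 aims at. With the spread set by a trend over genes, 61.5%, 77.5% and 52.5% were recovered, with 9, 7 and 5 false calls. Counting intervals and the floor of 3 counts, which corresponds to 0.0969 to 0.500 CPM, cover counting error only.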

Additional observations from a re-analysis of the deposited data

How the results depend on the processing

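Counts of called members depended on the processing most, and the cause was not tested. Some settings test fewer or more genes, or count more replicates, by their own construction. Shares of all genes called in the same fit stand in brackets. For SB431542 the 0 became 1 with all 8 columns as replicates (1.46%). For SIS3 the 12 (3.82%) became 1 with a mean of 5 CPM or more (1.05%), 2 with the 2 groups alone (1.47%), 4 with length and GC trends removed (2.28%) and 6 without receptor, predicted and pseudogene rows (2.1%). They became 56 with all 8 columns (38.1%), 54 with only the E13.5 columns summed (29.4%), and 6 to 12 when 1 column was left out (2.77% to 3.76%). Between the stages the 6 (5.23%) became 3 with a mean of 5 CPM or more (1.56%), 3 without receptor, predicted and pseudogene rows (0.383%), 14 with no filter (7.49%), 11 with length and GC trends removed (2.81%), 11 without rows sharing over 50% of their 31-base words (8.93%), 39 with only the E13.5 columns summed (37.7%) and 57 with all 8 columns (54.9%). With the replicate block the counts were 0 (0.468%), 56 (34.9%) and 54 (52.2%) in the 3 comparisons. Correlations of same-numbered columns' deviations lay between -0.0234 and 0.000865. Columns of the SMARTer groups differed by about sampling noise in genes with 1 unshared transcript and by more in genes with several transcripts. What the added difference reflects was not tested, so these correlations cannot show whether same-numbered columns share more than a number.

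With length and GC trends removed, the mitochondrial median was -0.21 in SB431542 and -1.79 between the stages, the nuclear median in SIS3 was -0.12, and mt-Atp8 at E13.5 turned from 0.00 to -3.38 (edgeR adjusted p = 0.00146). The mitochondrial median in SIS3 was -0.72 with the copies and between -0.95 and -0.70 with 1 column left out. Without rows sharing over 50% of their words the stage median of the mitochondrial mRNAs was -0.0205. The mitochondrial to nuclear ratio of the SIS3 pair was 2.71 and became 3.38 with the copies. Size factors of the RLE kind left all 124 single-gene results on the same side of the threshold, and DESeq2 119 of them. Leaving out a SIS3 library leaves no residual degree of freedom and gives values with no test. The settings with copy sums, without receptor, predicted and pseudogene rows, and with only the E13.5 columns summed were chosen after seeing the data. Precision is limited by the single pair that measures the spread, and by the 5995709 counts of the smaller SIS3 library.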
